A study of Drosophila melanogaster with 18 samples.

Results

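The epidermal growth factor receptor (EGFR) pathway was followed at 9 Drosophila melanogaster genes that were taken by name for their roles in it: the receptor gene Egfr, the ligand genes spi and vn, the ligand-processing gene rho, the feedback inhibitors aos, sty and kek1, and the nuclear factors aop and pnt. They were 9 of 14195 gene windows, each window being the gene's span in the RefSeq table (Release 6, which is dm6) with 1 kb added on each side. All 9 had enough reads to be tested. The study compared where Dam methylase fused to Scalloped (Dam-Sd), to Yorkie (Yki-Dam) or to the Drosophila Jun protein Jra (Dam-Jra) marks DNA in eye-antennal discs, larval sheets of cells from which the eye and the antenna develop. Scalloped is the DNA-binding partner of Yorkie, the co-activator that the Hippo pathway holds back, and Jra is a subunit of AP-1, the factor that JNK signalling switches on.

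In Drosophila the EGFR is bound by Spitz and Vein, and Spitz must first be cut from the membrane by the protease Rhomboid. The signal passes through Ras and MAP kinase to a pair of ETS proteins that share target sites: the repressor Yan, made by aop, is removed and the activator Pointed, made by pnt, takes over. The pathway then restrains itself, since it turns on argos (aos), sprouty (sty) and kekkon1 (kek1), whose proteins block the ligand, the intracellular signal and the receptor. In the eye disc the same pathway recruits photoreceptors and keeps cells alive.

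Each of the 18 libraries was made by targeted DamID. Dam methylates the adenine of GATC sites near the place where its partner sits, and the counts are of reads at the ends of methylated GATC fragments, so a count measures methylation near the fusion and not transcription. All larvae carried Eyeless-Gal4 and Gal80ts, so transgenes were driven in cells of the Eyeless-Gal4 pattern, and they differed only in UAS-Dam (the control, in Sets 1, 2 and 3), UAS-Dam-Sd, UAS-Yki-Dam or UAS-Dam-Jra, with 3 libraries in each of 6 groups. Eggs were laid at 25 °C, larvae were held at 18 °C for 4 days, and the transgenes were released at 29 °C for the last 24 h before dissection. The titles put Dam-Sd with Dam Set 1 and Yki-Dam with Dam Set 2. They put Dam-Jra in Set 1 as well, while Dam Set 3 has no fusion of its own, so Dam-Jra was set against the mean of the 3 Dam sets, and its values against Set 3 alone are given where they differ.

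Libraries held 21.4 M to 41 M reads at GATC ends. Scaling factors (TMM, which line up the bulk of the windows) ran from 0.56 to 1.62, and were lower in every fusion library than in every Dam library. The 3 Dam-Sd libraries were the least alike, with factors of 0.56, 0.655 and 0.956, and replicate 3 was the lowest of them at 8 of the 9 genes. In Dam alone, 9 of 10 eye-antennal marker genes lay above the median window of 4.82 CPM per kb (reads scaled to a common library total and divided by window length), against 1 of 4 neuron, 1 of 3 glia, 1 of 3 haemocyte, 2 of 3 muscle, 1 of 3 fat body and 1 of 2 germline markers. What part cells of other types have in the values was not tested. In such bulk samples, fewer marked cells and less methylation per cell cannot be told apart.

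The gene spans are long, with a median of 22.3 kb against 2.1 kb over all windows, and neighbours share some of their sites. Egfr lies at chr2R:21522420-21559977, spi at chr2L:19567900-19577315, vn at chr3L:5813338-5845664, rho at chr3L:1463811-1468944, aos at chr3L:16470386-16483650, sty at chr3L:3401153-3424935, kek1 at chr2L:12817000-12822787, aop at chr2L:2156484-2178754 and pnt at chr3R:23290231-23346167. Of the GATC ends counted for kek1, sty, pnt, vn, aop and Egfr, 100%, 96.2%, 95.2%, 92.1%, 87.4% and 72.8% lay in no other window. For spi the figure was 29.0%. For rho and aos it was 0%, because every end also fell in the window of Ptp61F or CG33158, so their window totals cannot be told apart from those neighbours. What part window length has in the values was not tested.

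Egfr, spi, aos, sty, aop and pnt were 3.08-fold to 8.40-fold higher with both Hippo pathway fusions than with Dam alone, and vn rose less. In the main fit, which had no replicate block, rho and kek1 did not pass. With the replicate number as a block, rho passed with both fusions and kek1 with Yki-Dam. All 9 were higher with Dam-Jra. aop, the gene of the Yan repressor, had the largest fold with every fusion. Against Dam Set 1, Dam-Sd was higher at 7 of the 9 windows and lower at 0, where 26.1% of all 14090 tested windows were higher and 30.3% lower (edgeR quasi-likelihood test, Benjamini-Hochberg adjusted p below 0.05 over all tested windows, the rule used throughout). Yki-Dam against Dam Set 2 was higher at 7 of 9 and lower at 0, where 22.0% of windows were higher and 20.3% lower. Dam-Jra was higher at 9 of 9, where 32.6% of windows were higher and 36.3% lower, and against Set 3 alone at 8 of 9, where 23.3% were higher and 27.0% lower. No gene was lower at an unadjusted p under 0.05 in any of these comparisons, and by DESeq2 8, 7 and 9 genes passed. The median log2 fold change of the 9 genes was 2.23 with Dam-Sd, 1.68 with Yki-Dam and 1.36 with Dam-Jra (0.85 against Set 3), while that of all tested windows was −0.17, −0.13 and −0.10 (−0.14 against Set 3). Against Dam Set 1 alone, where the titles place Dam-Jra, these medians were 1.87 and −0.14. The log2 fold changes there were 1.90 at Egfr, 0.89 at spi, 1.00 at vn, 1.175 at rho and 2.02 at aos. They were 1.87 at sty, 0.88 at kek1, 2.31 at aop and 2.05 at pnt, with edgeR adjusted p of 0.0091 or less. The comparison of Dam-Jra with the mean of the Dam sets shares Dam libraries with the other two. With library totals alone as the scaling, the median window moved to −1.24 with Dam-Sd, −0.94 with Yki-Dam and −1.03 with Dam-Jra, and 5 of the 9 genes passed with Dam-Jra. Under that scaling 6 genes were higher with Dam-Sd, and vn, rho and kek1 were lower. Folds that change sign under that scaling are also given relative to its median window.

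**Figure D1:**
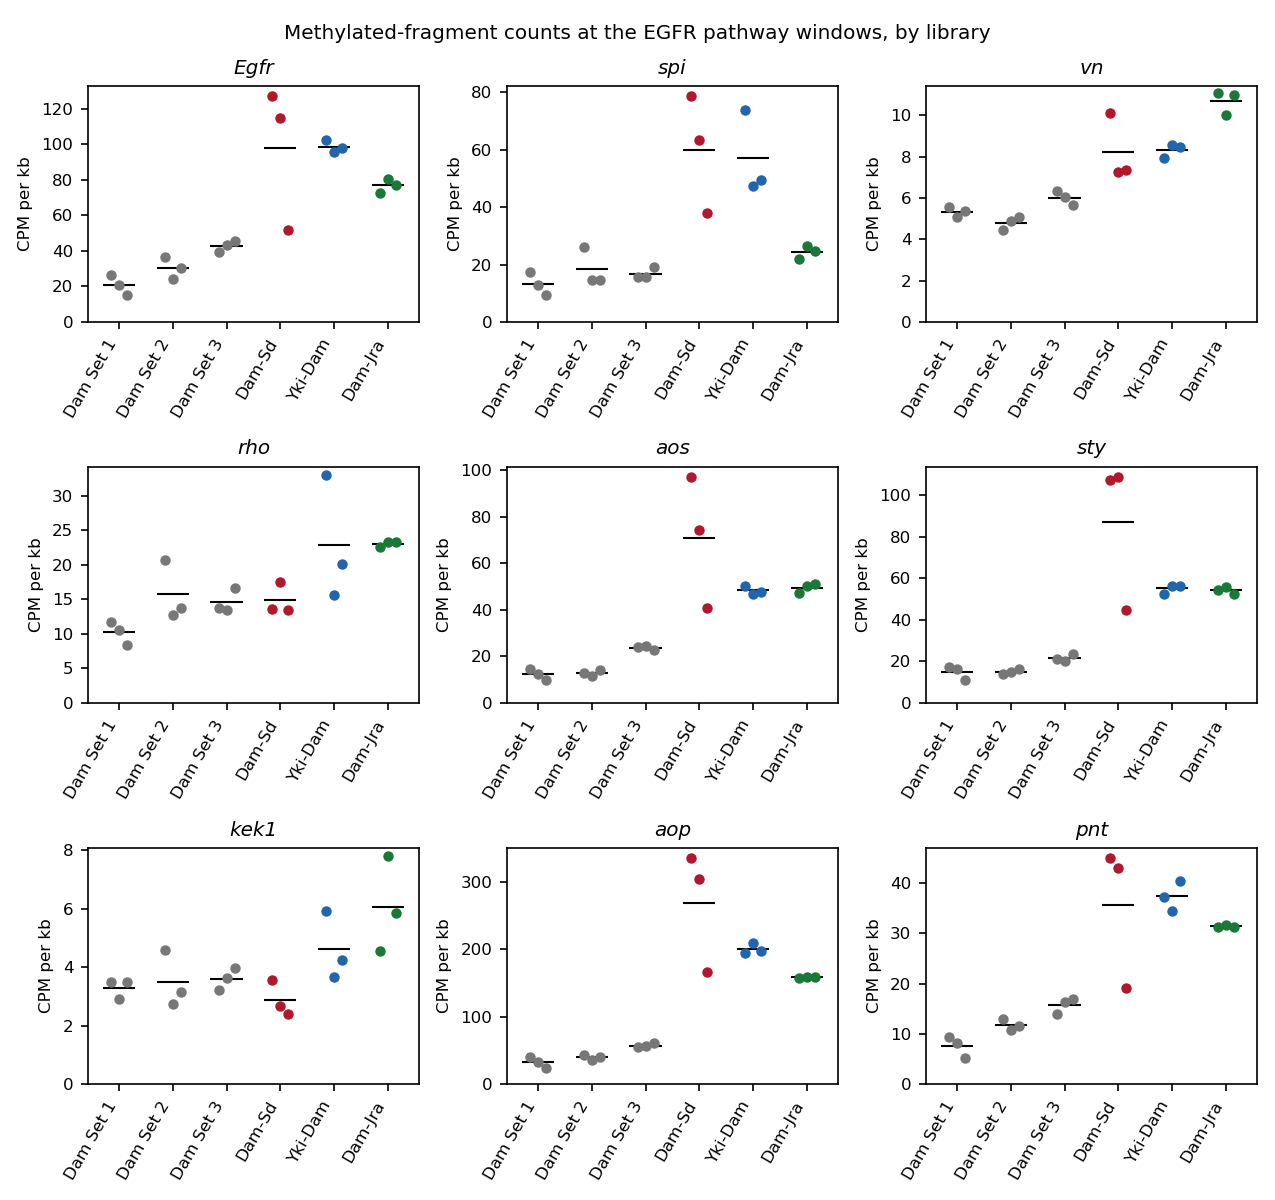
Level at each gene window in CPM per kb (vertical axis from 0, a separate scale for each gene) in the 6 groups of 3 libraries. Points are libraries, bars are group means. At Egfr, spi, aos, sty, aop and pnt every Dam-Sd and Yki-Dam library lies above every library of its own Dam set, and at kek1 the Dam-Sd libraries lie on both sides of the Dam Set 1 libraries.

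Egfr, the receptor gene, stood at 26.2, 20.7 and 15 CPM per kb in the Dam Set 1 libraries and at 127, 115 and 51.8 CPM per kb with Dam-Sd. It stood at 36.3, 24.1 and 30.4 in Dam Set 2 and at 102, 95.6 and 98.2 CPM per kb with Yki-Dam. The fusion libraries lay above their Dam libraries in both comparisons, as was true of 25.4% of all windows for Dam-Sd and 23.1% for Yki-Dam. The log2 fold change was 2.25 ± 0.30 (SE, n = 3 per group) with Dam-Sd (edgeR adjusted p = 4.19e-06) and 1.70 ± 0.30 with Yki-Dam (edgeR adjusted p = 0.000171). Dam-Jra gave 72.9, 80.8 and 77.2 CPM per kb, above all 9 Dam libraries, as was true of 26.3% of all windows. The libraries of Set 3 came closest at 39.5, 43.3 and 45.5, and 31.7% of all windows had every Dam-Jra library above those 3. Its log2 fold change was 1.36 ± 0.22, and 0.85 ± 0.29 against Set 3 alone (edgeR adjusted p = 2.02e-05 and 0.021).

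spi, which encodes the main activating ligand Spitz, was the gene at which the fusions parted most. Dam Set 1 gave 17.3, 13.03 and 9.25 CPM per kb and Dam-Sd gave 78.8, 63.6 and 37.9. Dam Set 2 gave 26.2, 14.5 and 14.7 CPM per kb and Yki-Dam gave 74.0, 47.5 and 49.4. Both fusions were thus clear of their controls, with log2 fold changes of 2.19 ± 0.29 and 1.62 ± 0.29 (edgeR adjusted p = 3.45e-06 and 0.000178). Dam-Jra, at 22.03, 26.4 and 24.6 CPM per kb, overlapped the Dam libraries, since 1 library of Set 2 reached 26.2. Its log2 fold change of 0.61 ± 0.22 passed against the mean of the sets (edgeR adjusted p = 0.021) and not against Set 3 alone, at 0.53 ± 0.28 (edgeR adjusted p = 0.121). It also missed without Dam-Jra replicate 2 or 3 (edgeR adjusted p = 0.108 and 0.0797), and with only the ends in no other window (0.62, edgeR adjusted p = 0.0622). With library totals alone it was −0.31, which is 0.72 above the median window. Against Set 1 alone, where the titles place it, Dam-Jra passed at 0.89 ± 0.28 (edgeR adjusted p = 0.0091).

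vn encodes Vein, a weaker ligand that needs no Rhomboid. Its level was low, at 5.6, 5.1 and 5.4 CPM per kb in Dam Set 1 and 10.1, 7.2 and 7.4 with Dam-Sd. Dam Set 2 gave 4.5, 4.9 and 5.1 CPM per kb and Yki-Dam 7.9, 8.5 and 8.5. Dam-Jra was highest at 11.1, 10.01 and 11 CPM per kb, against 6.3, 6.1 and 5.7 in Set 3. No fusion library fell to the level of its controls, and the log2 fold changes were modest: 0.62 ± 0.16 with Dam-Sd, 0.79 ± 0.16 with Yki-Dam and 1.00 ± 0.13 with Dam-Jra (edgeR adjusted p = 0.00262, 0.000768 and 8.8e-07). The Dam-Sd value missed when only the 6 libraries of that comparison were fitted (edgeR adjusted p = 0.0685). With library totals alone the Dam-Sd and Yki-Dam values turned to −0.47, a lower call (edgeR adjusted p = 0.00545), and −0.02, which is 0.78 and 0.92 above the median window. The Dam-Jra value fell to 0.07 there and did not pass (edgeR adjusted p = 0.577). With TMM scaling and Set 3 alone as control, Dam-Jra gave 0.83 ± 0.16 (edgeR adjusted p = 0.000361).

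rho, the gene of the Rhomboid protease, had the smallest fold among the receptor, ligand and protease genes with Dam-Sd and Yki-Dam. Dam Set 1 gave 11.7, 10.5 and 8.43 CPM per kb and Dam-Sd 13.6, 17.5 and 13.4, which did not overlap, and the log2 fold change of 0.54 ± 0.24 missed the threshold (edgeR adjusted p = 0.0584). Dam Set 2 gave 20.7, 12.7 and 13.7 CPM per kb and Yki-Dam 32.9, 15.7 and 20.1, which overlapped, with a log2 fold change of 0.54 ± 0.23 (edgeR adjusted p = 0.0674). Same-numbered libraries were the most alike in the Dam-Sd comparison, while in the Yki-Dam comparison this was clear for replicate 1 alone. With the number as a block both values passed, at 0.55 each (edgeR adjusted p = 0.0133 and 0.00332). Dam-Jra, at 22.5, 23.2 and 23.3 CPM per kb, passed with a log2 fold change of 0.79 ± 0.18 (edgeR adjusted p = 0.000753). Against Set 3 alone it was 0.65 ± 0.23 (edgeR adjusted p = 0.0251). Without the 1 kb flanks the value against the mean of the sets was −0.08 (edgeR adjusted p = 0.746). With library totals alone the 3 values turned to −0.52, a lower call (edgeR adjusted p = 0.0467), −0.26 and −0.13, which is 0.72, 0.68 and 0.90 above the median window. The neighbour Ptp61F, which shares these ends, had log2 fold changes of 1.58 ± 0.23 with Dam-Sd, 1.20 ± 0.22 with Yki-Dam and 1.24 ± 0.17 with Dam-Jra.

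Among the feedback inhibitors, aos and sty had similar folds. aos, whose secreted protein binds Spitz, stood at 14.4, 12.4 and 9.94 CPM per kb in Dam Set 1 and 97.1, 74.2 and 40.8 with Dam-Sd. sty, whose protein blocks signalling inside the cell, stood at 17.4, 16.2 and 10.9 in Dam Set 1 and 107, 109 and 44.6 CPM per kb with Dam-Sd. In both, the lowest Dam-Sd library, replicate 3, still lay far above the highest Dam Set 1 library. The log2 fold changes with Dam-Sd were 2.53 ± 0.25 for aos and 2.55 ± 0.28 for sty (edgeR adjusted p = 1.84e-07 and 4.78e-07).

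With Yki-Dam, aos gave 50.4, 47.0 and 47.8 CPM per kb against 12.7, 11.5 and 14.3 in Dam Set 2, and sty gave 52.4, 56.5 and 56.5 against 14.0, 14.9 and 16.2. Their log2 fold changes were 1.92 ± 0.24 and 1.87 ± 0.27. Dam-Jra gave 47.5, 50.2 and 51.0 CPM per kb at aos and 54.1, 55.7 and 52.6 at sty, close to the Yki-Dam libraries. Against the mean of the Dam sets these were log2 fold changes of 1.68 ± 0.18 and 1.68 ± 0.20, and against Set 3 alone 1.06 ± 0.24 and 1.32 ± 0.27 (edgeR adjusted p = 0.00111 and 0.00051). The aos window shares all its ends with CG33158, which had log2 fold changes of 1.63 ± 0.22 with Dam-Sd and 1.46 ± 0.22 with Yki-Dam over its own window.

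kek1, the inhibitor whose membrane protein binds the receptor itself, differed. It had the lowest level of the 9, at 3.48, 2.90 and 3.49 CPM per kb in Dam Set 1 and 3.57, 2.67 and 2.41 with Dam-Sd, so 1 Dam-Sd library lay above all of Dam Set 1 and 2 lay below. The log2 fold change was −0.20 ± 0.25 (edgeR adjusted p = 0.499). It was a lower call without the flanks (−0.65, edgeR adjusted p = 0.0334) and with library totals alone (−1.31, edgeR adjusted p = 8.68e-05), where it lay 0.06 under the median window. Yki-Dam gave 5.94, 3.66 and 4.23 CPM per kb, also overlapping Dam Set 2 at 4.58, 2.74 and 3.14, with a log2 fold change of 0.39 ± 0.24 (edgeR adjusted p = 0.186), which passed with the replicate block at 0.45 (edgeR adjusted p = 0.0235). Dam-Jra gave 4.55, 7.81 and 5.87 CPM per kb, and its lowest library lay just under the highest of the 9 Dam libraries. Its log2 fold change of 0.81 ± 0.19 passed (edgeR adjusted p = 0.000638), as did that against Set 3 (0.75 ± 0.23, edgeR adjusted p = 0.011), and without the flanks it was 0.30 (edgeR adjusted p = 0.158). With library totals alone the Yki-Dam and Dam-Jra values turned to −0.42 and −0.12, which is 0.52 and 0.91 above the median window.

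At the nuclear end of the pathway both genes were high with every fusion. aop, the repressor gene, had the highest level and the largest fold of the 9 with each fusion. Dam Set 1 gave 40.1, 32.8 and 23.1 CPM per kb and Dam-Sd 335, 304 and 167, and Dam Set 2 gave 43.2, 35.4 and 40.1 against 195, 209.6 and 198 with Yki-Dam. Even the lowest of these 6 fusion libraries exceeded every Dam library by a wide margin, with log2 fold changes of 3.07 ± 0.29 and 2.34 ± 0.28 (edgeR adjusted p = 1.36e-07 and 4.2e-06). These ranked at the 99.8 and 99.6 percentiles of all windows. Dam-Jra gave 157, 159.5 and 159 CPM per kb, again above all 9 Dam libraries, and a log2 fold change of 1.93 ± 0.20 (edgeR adjusted p = 7.8e-08), or 1.48 ± 0.27 against Set 3.

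pnt, the activator gene, stood at 9.37, 8.19 and 5.23 CPM per kb in Dam Set 1 and 45.0, 43.0 and 19.1 with Dam-Sd. Dam Set 2 gave 12.9, 10.7 and 11.6 CPM per kb and Yki-Dam 37.3, 34.5 and 40.5. The groups did not overlap, and the log2 fold changes were 2.23 ± 0.28 and 1.68 ± 0.28 (edgeR adjusted p = 2.22e-06 and 0.000105). Dam-Jra gave 31.4, 31.6 and 31.2 CPM per kb, a log2 fold change of 1.49 ± 0.21 (edgeR adjusted p = 3.12e-06) and 0.99 ± 0.27 against Set 3 (edgeR adjusted p = 0.00558).

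**Figure D2:**
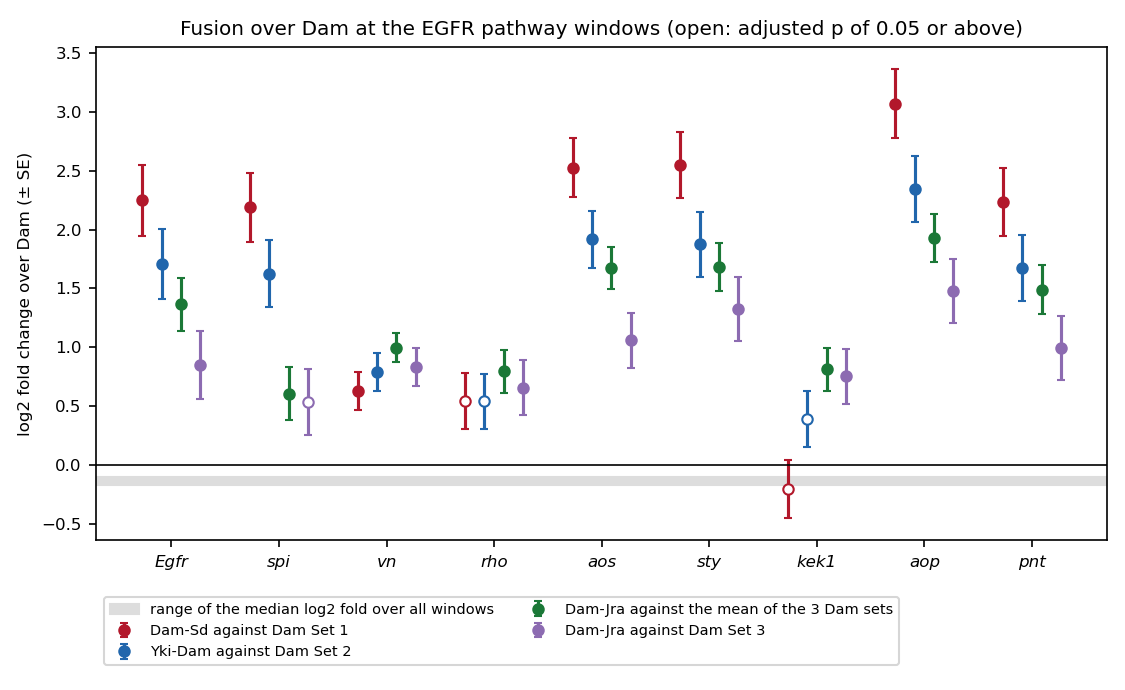
Log2 fold change of each fusion over Dam at the 9 windows (vertical axis, ± SE from the edgeR fit with TMM scaling), with 3 libraries per group. Filled points have an adjusted p below 0.05, open points do not, and the grey band is the range of the median over all windows. aop is highest in all 4 comparisons, from 3.07 with Dam-Sd to 1.48 for Dam-Jra against Dam Set 3, and the open points are rho and kek1 with Dam-Sd and Yki-Dam and spi for Dam-Jra against Set 3.

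Within Dam alone the 9 genes were already spread widely. Mean levels in Dam Set 1 ran from 3.29 CPM per kb at kek1 through 5.34 at vn, 7.595 at pnt, 10.2 at rho, 12.3 at aos, 13.2 at spi, 14.8 at sty and 20.6 at Egfr to 32.0 at aop. Each neighbouring pair in this order overlapped in its libraries except kek1 and vn. Dam Set 3 stood above the other Dam sets at several genes, for example at aos (23.8 CPM per kb on average, against 12.3 and 12.8) and Egfr (42.7, against 20.6 and 30.3), and the folds of Dam-Jra against Set 3 were smaller there.

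Whether a gene's fold differed between fusions was tested as a contrast of the folds in the same fit, without a replicate block. Dam-Sd and Yki-Dam differed at 0 of the 9 genes by edgeR, where 3.6% of all windows differed, with 0 at an unadjusted p under 0.05 and 0 called by DESeq2. The estimates at the 6 genes highest with both ran from 0.54 ± 0.41 at Egfr to 0.73 ± 0.38 at aop on the log2 scale, none of which passed, and at kek1 the estimate was −0.60 ± 0.34. This result changed when Dam-Sd replicate 3 alone was left out. Dam-Sd then exceeded Yki-Dam at 5 of the genes, by 1.03 at Egfr, 1.08 at aos, 1.18 at sty, 1.16 at aop and 1.04 at pnt (edgeR adjusted p = 0.0164, 0.00759, 0.00579, 0.00737 and 0.0142). Over all windows, 507 differed in the main fit and 164 to 2616 with a library left out. Dam Set 1 replicate 3, taken as its pair, was kept. It was itself the lowest of Dam Set 1 at these genes (15 CPM per kb at Egfr, against 26.2 and 20.7). Leaving out both was not tested. With all 9 Dam libraries as control of both fusions, the Dam terms cancel. That setting thus compares Dam-Sd and Yki-Dam levels directly, without their own Dam sets. The estimates there were −0.011 at Egfr and −0.069 at pnt, and 0 genes differed.

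Each over its own control, Dam-Jra gave lower folds than Dam-Sd at 5 genes and a higher fold at 1, where 40.7% of all windows differed. The differences on the log2 scale were −0.88 ± 0.34 at Egfr, −1.58 ± 0.33 at spi, −0.85 ± 0.27 at aos, −0.87 ± 0.31 at sty and −1.14 ± 0.31 at aop, and 1.01 ± 0.28 at kek1 (edgeR adjusted p = 0.0418, 0.000858, 0.0169, 0.0287, 0.00688 and 0.00757). pnt, at −0.75 ± 0.32, missed (edgeR adjusted p = 0.0643). The Egfr difference missed when any of 12 of the 15 libraries was left out (edgeR adjusted p from 0.052 to 0.128), the sty difference with 6 of the 15, aos with 2 and kek1 with 1, while those at spi and aop passed each time. pnt passed with Set 3 as control of Dam-Jra (−1.24, edgeR adjusted p = 0.0205) and in the DESeq2 Wald test (−0.88, adjusted p = 0.018). Without Dam-Jra replicate 1 or 2 the number of genes that differed fell from 6 to 3. With the same Dam libraries as control of both fusions, a setting chosen after seeing the data, the Dam terms cancel and the fusion levels are compared directly. Dam-Jra then differed from Dam-Sd at 5 genes, namely spi (−1.30), aop (−0.76), sty (−0.68), kek1 (1.09) and rho (0.63). It no longer differed at Egfr (−0.35, edgeR adjusted p = 0.339) or aos (−0.51, edgeR adjusted p = 0.0774).

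Dam-Jra and Yki-Dam differed at spi alone of the 9, where 24.9% of all windows differed. The difference was −1.02 ± 0.33 (edgeR adjusted p = 0.0271). It was −1.23 with the same Dam libraries for both, where the Dam terms cancel (edgeR adjusted p = 0.0017). In the first form it missed without Yki-Dam replicate 1 (−0.66, edgeR adjusted p = 0.172), without any other single Yki-Dam or Dam-Jra library, and without Dam Set 2 replicate 2 or 3, with edgeR adjusted p from 0.0523 to 0.127. At the other 8 genes the estimates ran from −0.42 ± 0.31 at aop to 0.42 ± 0.27 at kek1.

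Counts in 1 kb tiles placed these signals within the genes. Of 207 tested tiles in the 9 windows, 95 (45.9%) were higher with Dam-Sd and 18 lower, where 16.6% of all 106036 tiles were higher and 17.3% lower. Yki-Dam was higher in 88 (42.5%) and lower in 3, where 11.0% of all tiles were higher and 13.1% lower. Dam-Jra was higher in 142 (68.6%) and lower in 9, where 24.1% were higher and 31.5% lower, and against Set 3 alone in 90 (43.5%) and lower in 5, where 14.4% were higher and 14.1% lower. Of these tiles, 70 were higher with both Dam-Sd and Yki-Dam, which is 73.7% of the first and 79.5% of the second, against 52.8% and 79.8% over all tiles. Dam-Sd shared 60 with Dam-Jra against Set 3, which is 63.2% and 66.7%, against 46.7% and 53.9% over all tiles. Yki-Dam shared 61, which is 69.3% and 67.8%, against 64.8% and 49.4%. These pairs have no library in common.

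**Figure D3:**
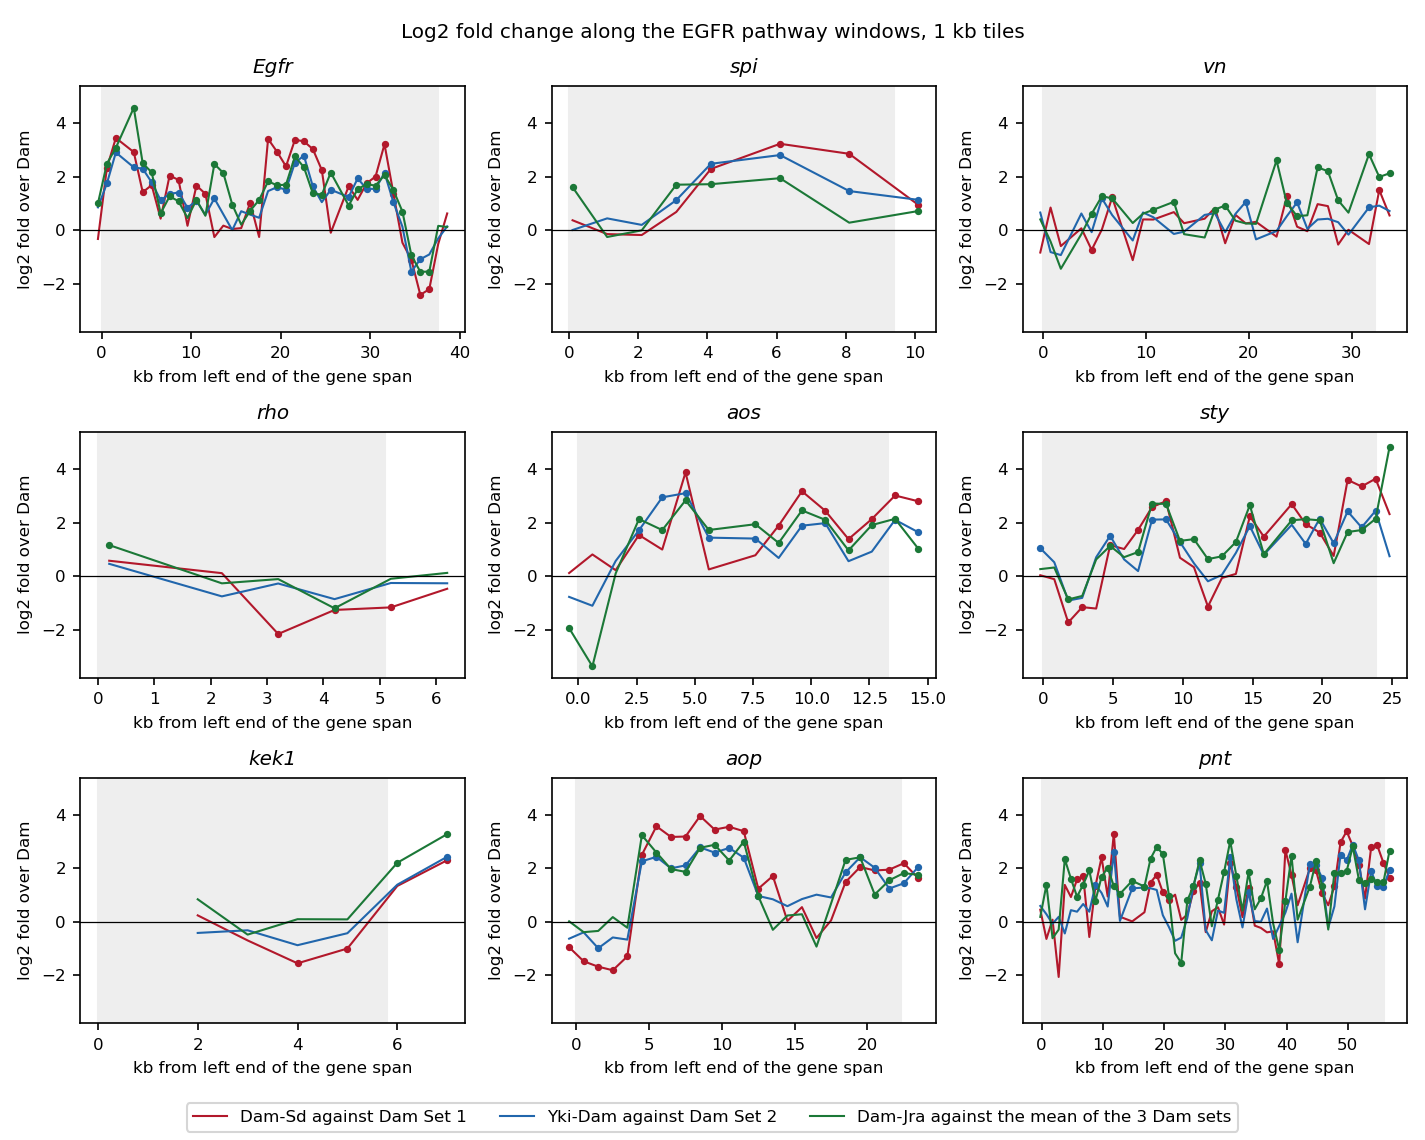
Log2 fold change over Dam in 1 kb tiles (vertical axis) by distance in kb of the tile's right edge from the left end of the gene span (horizontal axis), for the 3 fusions. Positions of single tiles in the text are those of tile middles. Dots mark tiles with an adjusted p below 0.05, grey shading is the gene span, and lines run straight across tiles with too few reads. In aop the 3 lines rise together between 4 and 12 kb, in kek1 they rise at the right edge, and in vn the Dam-Jra line is the highest near the right end.

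aop showed the most compact block. The 8 tiles with middles 4 to 11 kb from the left end of its span were higher with all 3 fusions. They held log2 fold changes of 2.51 to 3.96 with Dam-Sd, 2.00 to 2.79 with Yki-Dam and 1.87 to 3.24 with Dam-Jra. This block covers the inner of the 2 aop gene starts in the authors' lists, at position 2161527. Another block, of the 6 tiles at the right end of the window, covers the outer start at 2178754 and was higher with every fusion. Against Set 3 alone, 1 of the 6 missed for Dam-Jra (0.87, edgeR adjusted p = 0.0894). The 5 tiles at the left end were lower with Dam-Sd, by −0.95 to −1.81, and 1 of them with Yki-Dam, where the neighbour gene AIF overlaps. All 15 aop tiles higher with Yki-Dam were among the 16 higher with Dam-Sd.

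The strongest tile by reads in aop, at chr2L:2162001-2163000, held 2528, 1674 and 1060 CPM with Dam-Sd, 1518, 977 and 970 with Yki-Dam and 1114, 1186 and 1152 with Dam-Jra. The 9 Dam libraries gave 112 to 481 CPM there. That single tile carried 25.4%, 26.0% and 24.3% of the gene's tiled reads with the 3 fusions.

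sty and aos had their highest Dam-Sd tiles near and away from the gene start, respectively. In sty, whose outer start lies at the right end of its span, the tile at 23.3 kb had log2 fold changes of 3.65 ± 0.36 with Dam-Sd and 2.44 ± 0.34 with Yki-Dam, and a second raised stretch lay 7 to 9 kb from the left end. The tile beyond the start held 0, 1.98 and 1.69 CPM with Dam-Jra and 0 to 0.232 CPM in the 9 Dam libraries, too few reads for a fold, although it passed (edgeR adjusted p = 6.51e-05). In aos the tile 4.1 kb from the left end was the top with all 3 fusions, at 3.88 ± 0.41, 3.10 ± 0.40 and 2.83 ± 0.28. Against Set 3 alone it stood at 2.00 ± 0.38 for Dam-Jra, and the tile 3.1 kb from the left end was higher, at 2.20 ± 0.77. The tile over the aos start, at chr3L:16483001-16484000, held 680, 428 and 219 CPM with Dam-Sd against 35.8 to 69.5 CPM in Dam Set 1.

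In Egfr, 22 of 38 tiles were higher with Dam-Sd, 23 with Yki-Dam and 30 with Dam-Jra (15 against Set 3 alone), and the 4 highest Dam-Sd tiles lay 1.1, 18.1, 21.1 and 22.1 kb from the left end. The authors' lists place Egfr starts at 21522420 and 21546643, near the first and the last of these. Tiles near the right end of the span went the other way, with −2.42 at 35.1 kb for Dam-Sd, −1.08 for Yki-Dam and −1.55 for Dam-Jra. The direction within the gene was therefore not uniform. In pnt, the longest gene, 28 of 55 tiles were higher with Dam-Sd, 19 with Yki-Dam and 43 with Dam-Jra (22 against Set 3 alone), and the Dam-Sd and Yki-Dam maxima of 3.39 ± 0.62 and 2.89 ± 0.52 lay 49.3 and 50.3 kb from its left end. The Dam-Jra maximum of 3.03 ± 0.25 lay at 30.3 kb, and against Set 3 alone the maximum was 3.42 ± 0.77 at 3.3 kb.

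In spi the top tile was the same for all fusions, 5.6 kb from the left end, at 3.24 ± 0.69 with Dam-Sd, 2.82 ± 0.68 with Yki-Dam and 1.95 ± 0.48 with Dam-Jra. The parting lay in the tile 2 kb further right, at chr2L:19575001-19576000, which carried 64.6% of the gene's tiled reads with Dam-Sd and 60.9% with Yki-Dam but 35.8% with Dam-Jra. It held 653, 464 and 272 CPM with Dam-Sd and 536, 262 and 270 CPM with Yki-Dam. Dam-Jra gave 137, 106 and 105 CPM there, within the 36.2 to 202 CPM of the 9 Dam libraries. The log2 fold changes were 2.86 ± 0.44, 1.47 ± 0.42 and 0.29 ± 0.33 (edgeR adjusted p = 5.92e-05, 0.0161 and 0.464).

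The 3 weak genes each had a pattern of their own. In vn, 3 of 29 tiles were higher with Dam-Sd and 4 with Yki-Dam, with none in common, whereas 16 were higher with Dam-Jra, and 11 against Set 3 alone. The highest, 31.2 kb from the left end and thus next to the vn start, had 2.85 ± 0.21 with Dam-Jra (edgeR adjusted p = 2.48e-09), against −0.51 with Dam-Sd and 0.86 with Yki-Dam. Against Set 3 alone it was 2.55 ± 0.30 and the tile at 22.2 kb was the highest, at 2.81 ± 0.38. The tile at 32.2 kb, which holds the vn start, was the highest with Dam-Sd, at 1.51 ± 0.35 (edgeR adjusted p = 0.00204). Dam-Jra gave 2.00 ± 0.26 there, and 1.15 ± 0.34 against Set 3 alone (edgeR adjusted p = 2.35e-06 and 0.0164). In kek1, 1 of 6 tiles was higher with Dam-Sd and with Yki-Dam and 2 with Dam-Jra. The tile at chr2L:12823001-12824000, just past the kek1 start at 12822787, had log2 fold changes of 2.31 ± 0.42, 2.44 ± 0.42 and 3.29 ± 0.29. It held 15.6, 6.12 and 5.46 CPM with Dam-Sd, 14.7, 8.89 and 9.54 with Yki-Dam and 15.3, 31.0 and 24.5 with Dam-Jra, against 1.15 to 4.43 CPM in the 9 Dam libraries, so none overlapped. Inside the kek1 span 2 tiles were lower with Dam-Sd (−1.55 and −0.995). In rho, the highest of 6 tiles, at the left flank, did not pass with Dam-Sd (0.58 ± 0.34, edgeR adjusted p = 0.215) or Yki-Dam (0.46 ± 0.34, edgeR adjusted p = 0.314), and 3 tiles were lower with Dam-Sd. With Dam-Jra the flank tile was higher (1.16 ± 0.26, but 0.90 ± 0.34 with edgeR adjusted p = 0.0553 against Set 3 alone) and 1 tile was lower. That tile held 91.6% to 94.6% of the reads in the rho tiles with the 3 fusions.

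The authors' peak lists gave another view of the same libraries. They hold 5057 Dam-Sd, 3878 Yki-Dam and 4568 Dam-Jra peaks, each assigned to gene starts within 5 kb, and their fold values are the authors' own. Peaks overlapped the windows of 8 of the 9 genes for Dam-Sd (31 peaks), 7 for Yki-Dam (32) and 9 for Dam-Jra (35), where 26.2%, 20.7% and 26.6% of all windows were overlapped. A longer window can touch more peaks, and the median span was 22.3 kb here against 2.1 kb over all windows. These shares are therefore not like for like, and what part length has was not tested. Of the 31 Dam-Sd peaks, 25 (80.6%) were overlapped by a Yki-Dam peak, and of the 32 Yki-Dam peaks 24 (75.0%) by a Dam-Sd peak. Over the whole lists these shares were 58.6% and 76.0%. aop carried 5, 7 and 6 peaks, over 38.9%, 40.8% and 36.5% of its window, and sty 4, 4 and 7 peaks over 32.6%, 32.4% and 33.3%.

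**Figure D4:**
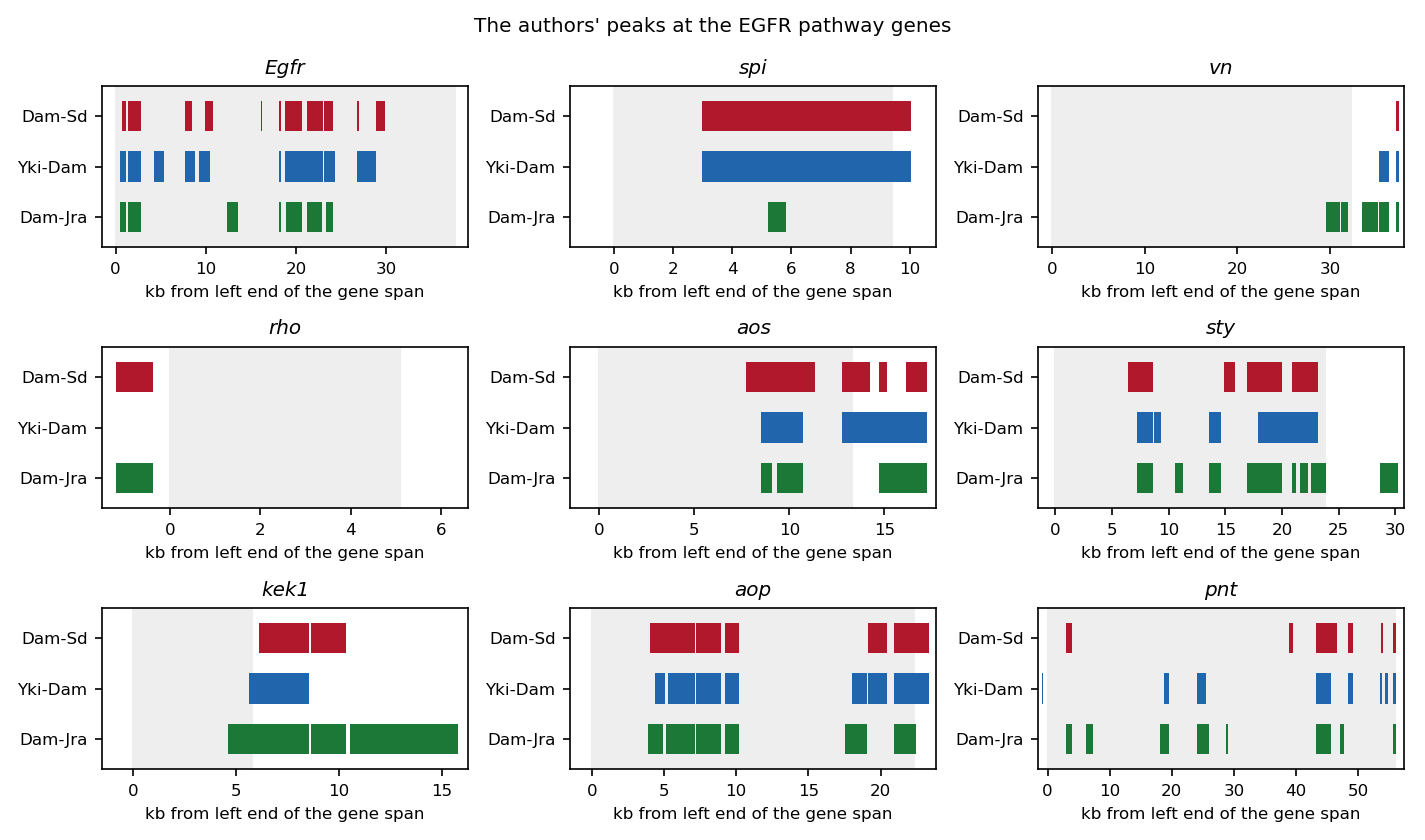
Peaks in the authors' lists at the 9 genes (bars), by distance in kb from the left end of the gene span (horizontal axis), 1 row per fusion, with the gene span shaded. spi has a single 7.07 kb peak in the Dam-Sd and Yki-Dam rows and a 0.61 kb peak in the Dam-Jra row, and vn has peaks within its span only in the Dam-Jra row.

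spi was covered by 1 peak of 7.07 kb in both the Dam-Sd and Yki-Dam lists, 61.9% of its window, and by a peak of 0.61 kb, 5.3%, in the Dam-Jra list. vn had 0 peaks in its window in the Dam-Sd and Yki-Dam lists and 2 in the Dam-Jra list. The authors assigned 1, 2 and 5 peaks to it in the 3 lists, within and beyond its span. One of them, at chr3L:5850489-5850837, was in all 3 lists, with authors' log2 fold values of 2.99, 2.71 and 2.77. Peaks were matched to a gene by listed gene starts equal to an end of its span, and rho had no peak by that rule. The 1 peak that touched its window (chr3L:1462612-1463434, in the Dam-Sd and Dam-Jra lists) lay over its left flank. Which gene start that peak was assigned to was not followed up. kek1 had a peak over its start or just past it in every list, of 2.20, 2.69 and 2.42 on the authors' log2 scale, although its window total did not pass for Dam-Sd and Yki-Dam. The authors assigned 2, 1 and 3 peaks to kek1 in the 3 lists, some of them beyond its window. One of these, at chr2L:12825642-12827358, had higher values of 3.55 with Dam-Sd and 3.99 with Dam-Jra. Another, at chr2L:12827527-12832772, had 1.76 with Dam-Jra. The window totals of kek1 leave these stretches out.

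The other genes of the pathway were read from a list of 27, all tested. With Dam-Sd 15 were higher and 5 lower, with Yki-Dam 15 and 4, and with Dam-Jra 18 and 5, or 15 and 5 against Set 3. The shares of the 14090 windows called higher and lower were 26.1% and 30.3% with Dam-Sd, 22.0% and 20.3% with Yki-Dam, and 32.6% and 36.3% with Dam-Jra, or 23.3% and 27.0% against Set 3. The median log2 fold changes of the 27 were 0.54, 0.75 and 0.75, and 0.61 for Dam-Jra against Set 3. In each comparison none of the ligand-processing genes and none of the nuclear factors was lower, and the lower calls were among signal transduction genes and inhibitors. Of 6 ligand and processing genes 4, 4 and 5 were higher, of 10 transduction genes 3, 3 and 5 were higher and 3, 3 and 4 lower, of 5 inhibitors 3 were higher with each fusion and 2, 1 and 1 lower, and of 6 nuclear factors and targets 5 were higher with each. Against Set 3 alone, Dam-Jra was higher at 4 transduction genes and at 3 nuclear factors and targets, and its other counts by role were unchanged.

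**Figure D5:**
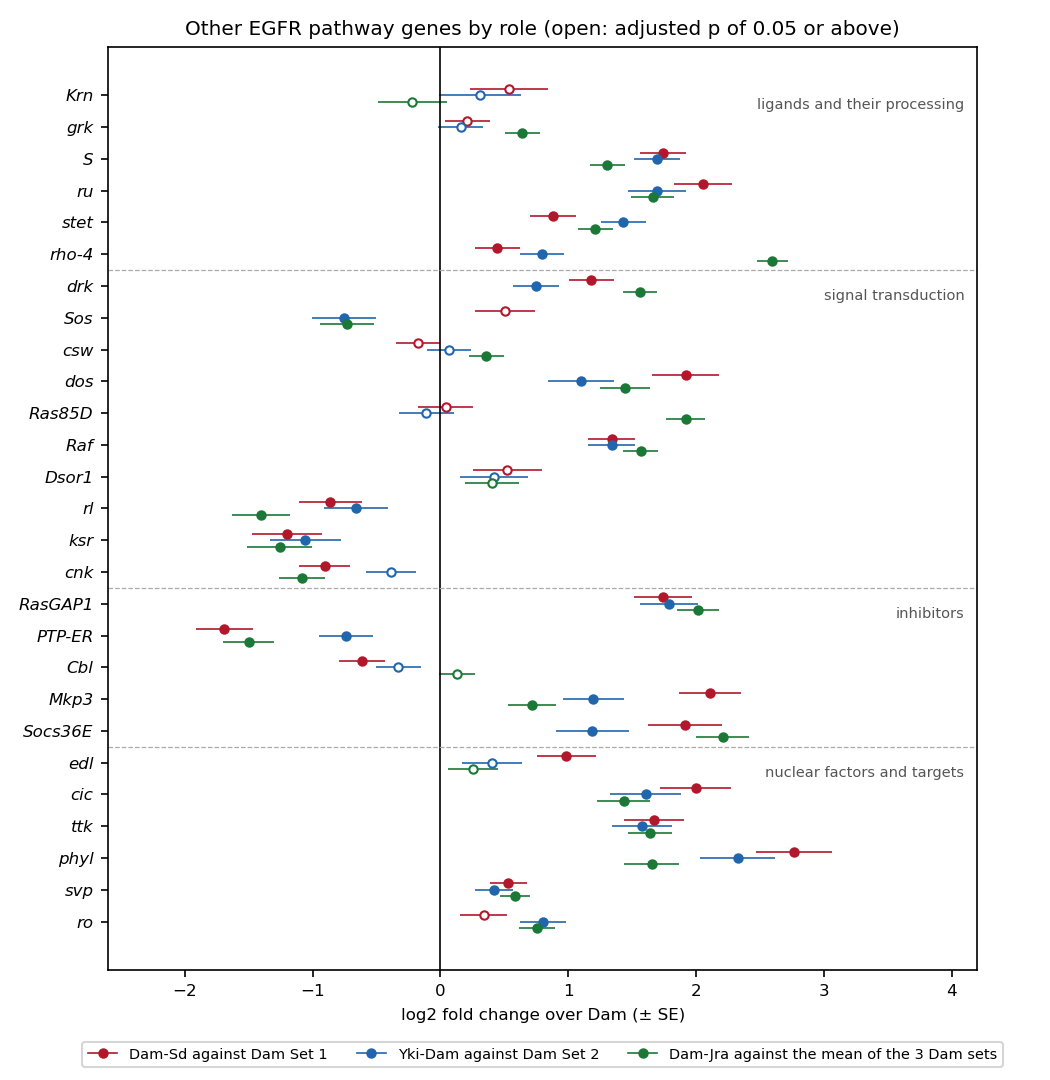
Log2 fold change over Dam (horizontal axis, ± SE, edgeR with TMM scaling) of 27 other EGFR pathway genes, grouped by role, for the 3 fusions with 3 libraries per group. Filled points have an adjusted p below 0.05. rho-4 and Ras85D lie far to the right with Dam-Jra, at 2.598 and 1.92, and rl, ksr and PTP-ER lie to the left with every fusion.

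phyl, an adaptor gene needed for photoreceptor fates, led with Dam-Sd (2.77 ± 0.30) and Yki-Dam (2.33 ± 0.29). Next came Mkp3, a MAP kinase phosphatase gene (2.11 ± 0.24), and ru, a Rhomboid-family protease gene (2.05 ± 0.23), with Dam-Sd, and RasGAP1, which inactivates Ras (1.79 ± 0.23), and ru (1.70 ± 0.23) with Yki-Dam. Dam-Jra was led by rho-4, another Rhomboid-family gene (2.598 ± 0.12), then Socs36E, a suppressor of cytokine signalling (2.21 ± 0.21), and RasGAP1 (2.02 ± 0.16). All of these passed with edgeR at an adjusted p of 1.35e-05 or less. Against Set 3 alone, Dam-Jra gave 2.53 ± 0.17 at rho-4, 1.83 ± 0.29 at Socs36E, 1.55 ± 0.22 at RasGAP1 and 1.30 ± 0.20 at Ras85D. rho-4 was higher with Dam-Jra than with Dam-Sd by 2.15 ± 0.20 and than with Yki-Dam by 1.80 ± 0.20 (edgeR adjusted p = 1.26e-07 and 1.81e-06), and Ras85D by 1.88 ± 0.24 and 2.03 ± 0.24. Dam-Sd and Yki-Dam differed at Sos alone of the 27 (1.26 ± 0.34, edgeR adjusted p = 0.0457). The number that differed was 0 with library totals, without flanks or with unshared ends. It was 4 with all 9 Dam libraries as control, which cancel, 7 without Dam-Sd replicate 3 alone, and 0 or 1 with any other library left out. Over all windows it was 507 in the main fit and 164 to 2616 with a library left out. The kinase gene rl, the scaffold gene ksr and the phosphatase gene PTP-ER were lower with all 3 fusions, PTP-ER by −1.69 ± 0.22, −0.74 ± 0.21 and −1.501 ± 0.20.

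The windows whose pattern over the 18 libraries was nearest to each gene were found by the root mean square difference of row-centred log2 CPM. Egfr and pnt were each other's nearest window of all (0.099), on different chromosomes. Other windows were about as near: CG14502 lay at 0.099 from pnt, and CG43366 at 0.104 from Egfr and 0.117 from pnt. aos lay nearest to Delta (0.128), vn to Fas3 (0.124), sty to Magi (0.157), aop to Fbxl7 (0.185), kek1 to Coq9 (0.183), spi to CG7675 (0.201) and rho to RpS23 (0.216), where the median distance to all windows was 0.70 to 1.39. Among the 9, aos and sty (0.189) and sty and aop (0.264) came next after Egfr and pnt, and kek1 and aop were farthest apart (1.17). These distances describe libraries that share depth and scaling, and carry no test.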

How the data were processed

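Targeted DamID libraries (18, in 6 groups of 3) were analysed from the authors' deposited table of whole-number read counts at 767321 ends of GATC sites. Subread, featureCounts, edgeR, bedtools and dm6 are named per the submitters' processing notes, and their versions and roles are not given in the sources used here. Peak lists, deposited by the authors without a header, give log2 fold values and p-values, which are their own, and a score that reads as the number of GATC ends in the peak. Which Dam libraries lie behind them is not stated.

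Reads were added up over 14195 gene windows (13939 protein-coding, 256 miRNA, with 1 kb flanks) and over 1 kb tiles. Of the windows, 89.9% share ends with another. edgeR 4.0.16 (R 4.3.3) was run with a minimum count of 10 and TMM scaling on all libraries as 6 groups. The same code was run on simulated counts with a fixed spread and equal numbers of raised and lowered windows. That run does not test the scaling where changes are many or unbalanced. CPM per kb was computed from TMM-scaled totals.

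The 9 members, the list of 27 other genes and the markers were chosen with earlier results of these data known. All members are named. From the list, up to 3 called windows with the largest change per comparison are named, and for likeness the nearest window that shares no end. Whether replicates came from separate crosses or animals is not stated in the labels, so p-values measure the spread between these samples. Depth was 21.4 M to 41 M reads per library, and PCR reads are not independent molecules.

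Replicate numbers were shared between groups. Deviations from the group means of same-numbered libraries correlated at 0.569, 0.36 and 0.421 for Dam-Sd with Dam Set 1. For Yki-Dam with Dam Set 2 they correlated at 0.643, 0.419 and 0.374. Each Dam-Sd library matched its own number best, so these were taken as pairs in the replicate block. The main fit, the tiles and the differences between fusions had no such block. Yki-Dam replicate 3 matched Dam Set 2 replicate 2 slightly more, at 0.387, and Yki-Dam replicate 2 matched Dam Set 2 replicate 3 at 0.275. Pairing is therefore not clear for replicates 2 and 3 of that comparison. Correlations of same-numbered Dam-Jra libraries ran from −0.26 to 0.108, and these were not taken as pairs. Alternatives were other scalings, filters, tests, windows, controls, thresholds, tile widths and peak overlaps, DESeq2 1.42.0, the replicate block and leaving out each library. Sequences and motifs were not analysed here, since no genome was used.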

Additional observations from a re-analysis of the deposited data

Results flagged for a closer look

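The fold of Dam-Jra differed from that of Dam-Sd, by a test of the difference itself, at 6 of the 9 genes. It was lower at Egfr (−0.88), spi (−1.58), aos (−0.85), sty (−0.87) and aop (−1.14) and higher at kek1 (1.01), all on the log2 scale. The Egfr call was lost with 12 of 15 libraries left out in turn, sty with 6, aos with 2 and kek1 with 1. The fold of Dam-Jra also differed from that of Yki-Dam at spi (−1.02). With the same Dam libraries as control of both fusions, the Dam terms cancel and the fusion levels are compared directly. The differences from Dam-Sd at Egfr (−0.35) and aos (−0.51) then no longer passed, and those at spi (−1.30), sty (−0.68), aop (−0.76) and kek1 (1.09) passed.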

How the results depend on the processing

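The number of genes called for Dam-Sd and Yki-Dam against Dam stayed within 1.5 times under each alternative run. For Dam-Sd with library totals alone that number holds 6 higher and 3 lower calls (vn, rho and kek1), in place of 7 and 0. Dam-Jra was then higher at 5 genes, and these log2 folds changed sign: for Dam-Jra kek1 (−0.115), rho (−0.126) and spi (−0.309), for Dam-Sd rho (−0.523) and vn (−0.466), for Yki-Dam kek1 (−0.418), rho (−0.263) and vn (−0.024), and for Dam-Sd minus Yki-Dam rho (−0.259). Without flanks, kek1 with Yki-Dam was −0.019, rho with Dam-Jra −0.079, and the rho differences were −0.389 (Dam-Jra minus Dam-Sd), −0.53 (Dam-Jra minus Yki-Dam) and −0.141 (Dam-Sd minus Yki-Dam). With all 9 Dam libraries as control, which cancel between the fusions, Dam-Sd minus Yki-Dam was −0.011 at Egfr, −0.069 at pnt and −0.624 at rho. With unshared ends only, Dam-Jra minus Yki-Dam was 0.049 at pnt and 0.042 at sty, and vn was 0.073 for Dam-Sd minus Yki-Dam. That vn difference was 0.041 with DESeq2 size factors and 0.045 with the DESeq2 Wald test. Leaving out single libraries, it ran from −0.227 to 0.11 and the rho difference from −0.249 to 0.501. With the same Dam libraries, which also cancel, Dam-Jra minus Yki-Dam at aos was 0.034. The cause was not tested.

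Genes that differed between Dam-Jra and Dam-Sd numbered 3 with unshared ends, 3 at an adjusted p below 0.01, and 3 to 7 with a library left out. Between Dam-Jra and Yki-Dam the number was 0 with DESeq2 size factors, unshared ends, p below 0.01 or Set 3, 2 with library totals, and 0 to 2 with a library left out. Between Dam-Sd and Yki-Dam it was 0 to 5 with a library left out. Tiles called higher were 29.0% (Dam-Jra), 22.2% (Dam-Sd) and 26.6% (Yki-Dam) with library totals, 43.5% for Dam-Jra against Set 3, and 59.9% to 69.1%, 38.2% to 50.2% and 32.4% to 41.5% with a library left out. All windows called numbered 6093 (Dam-Jra) and 4946 (Dam-Sd) with unshared ends, and for Yki-Dam 10083 with library totals and 3571 at p below 0.01. For Dam-Jra minus Dam-Sd they numbered 2964 with unshared ends and 3457 at p below 0.01. For Dam-Jra minus Yki-Dam they numbered 1464 with unshared ends, 1660 at p below 0.01, 1260 with Set 3, 6232 with the same Dam libraries and 2225 to 3726 with a library left out. For Dam-Sd minus Yki-Dam they numbered 1250 with the Wald test, 328 without flanks, 227 with unshared ends, 50 at p below 0.01, 2171 with all Dam libraries as control and 164 to 2616 with a library left out. The share of called windows that were higher fell from 46.3%, 52.0% and 47.3% to 11%, 10.8% and 15% with library totals, and was 32.4% with unshared ends for Yki-Dam.

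With the replicate block, 8 genes passed for Dam-Sd, 9 for Yki-Dam and 9 for Dam-Jra. Besides rho and kek1 it changed no other call of the 9 genes against Dam. The differences between fusions were not run with the block. Settings chosen after seeing the data were Set 3 for tiles and the same Dam libraries for both fusions. rho and aos have no value with unshared ends. Motif counts were not run. Depth limits tiles of few reads, such as the sty tile past its start.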
